A study of Mus musculus with 8 samples.

Results

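The genes that osteoclasts use to dissolve bone, together with the subunits of the vacuolar proton pump (V-ATPase), were examined in mouse long bone after doxorubicin. The members were protein-coding genes of the deposited count table whose symbol begins with Atp6v0 or Atp6v1 (23 genes), plus 18 genes named for their part in resorption, which made 41 of the 55421 genes listed. Of these, 37 were among the 17035 genes that passed the filter on low counts. The RNA came from tibiae and femora of male wildtype C57BL/6 mice, 15 weeks old when dosed, with the bone ends cut away and the marrow spun out. The DoxoR group (4 mice) had received 1 intraperitoneal injection of 10 mg/kg doxorubicin, an anthracycline that damages DNA, and the CTRL group (4 mice) saline vehicle; bones were taken at day 30, with 1 library per mouse. The series title names osteoclast precursors and bone loss, so the comparison asked whether the resorption machinery differed between DoxoR and CTRL bones.

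An osteoclast seals itself onto bone and acidifies the space beneath it. Carbonic anhydrase supplies protons, the V-ATPase of the ruffled border pumps them outward, and a chloride-proton exchanger balances the charge. Cathepsin K and tartrate-resistant acid phosphatase act on the exposed matrix. The V-ATPase itself works in every cell, where it acidifies lysosomes and endosomes. It is built of a cytosolic V1 part, which splits ATP, and a membrane V0 part, which carries protons. Osteoclasts are set apart by the isoforms they use, above all the a3 subunit encoded by Tcirg1 and the d2 subunit encoded by Atp6v0d2, and loss of a3 causes osteopetrosis. The members were therefore read in classes: 7 osteoclast-specific genes, 10 further resorption genes, 17 shared V-ATPase subunits and accessory proteins, 6 subunits known from kidney, inner ear, testis or nerve, and Atp6v1fnb, which the symbol rule picked up although it is not a subunit. Osteoclast-specific is the name of a class here, and whether other cells of the bone express these 7 genes was not tested.

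MITF and its relatives TFEB and TFE3 are transcription factors that read E-boxes in the promoters of osteoclast and lysosome genes, and MITF is known to bind such a box in the mouse Acp5 promoter. The stretches below are shown because they carry these boxes in members whose levels are described next. They lie within the RefSeq promoter windows (GRCm38.p6; 250 bases before to 50 after a gene's start, read on the gene's own strand), and the capitals mark the E-box CACGTG, or in Acp5 the variant CACATG, which reads CATGTG on the other strand. No box shown overlaps another or an AP-1 site. For Atp6v1a, unlike the others shown, the window's start was not matched to the start of an annotated transcript.

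Acp5 (chr9:22130653-22130718, minus strand): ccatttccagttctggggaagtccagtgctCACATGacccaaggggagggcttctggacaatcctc
Clcn7 (chr17:25133346-25133433, plus strand): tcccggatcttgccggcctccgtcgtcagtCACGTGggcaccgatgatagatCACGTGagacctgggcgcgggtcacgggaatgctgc
Atp6v0b (chr4:117887312-117887395, minus strand): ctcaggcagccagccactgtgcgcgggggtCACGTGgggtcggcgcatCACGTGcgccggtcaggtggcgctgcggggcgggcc
Atp6v0d1 (chr8:105566032-105566097, minus strand): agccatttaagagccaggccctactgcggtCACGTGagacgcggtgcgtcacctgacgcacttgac
Atp6v0e (chr17:26676369-26676434, plus strand): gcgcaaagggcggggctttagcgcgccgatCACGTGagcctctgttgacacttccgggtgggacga
Atp6v1a (chr16:44139355-44139420, minus strand): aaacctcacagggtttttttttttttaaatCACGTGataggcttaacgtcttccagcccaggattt

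The promoter table held 31 of the 41 members, and CACGTG was found in 5 of them (16.1%), against 8.09% of all genes in the table. Those 5 were Clcn7, Atp6v0b, Atp6v0d1, Atp6v0e and Atp6v1a. CATGTG was found on either strand in 3 members (9.68%), Acp5, Clcn7 and Atp6v0c, against 15.9% of all genes, and the AP-1 site TGACTCA, searched on both strands, in Snx10 alone, 3.23% of members against 5.95% of all genes. These matches describe letters within a window and were not tested.

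The libraries held 23699525 to 35747083 counts, and the members together took between 0.27% and 0.408% of counts in DoxoR libraries and between 0.22% and 0.41% in CTRL libraries. Osteoclast markers were present in all libraries, with Acp5 and Ctsk among the most abundant members. Markers of other cells were present as well. The summed level of 10 macrophage markers was 338 to 485 CPM in DoxoR and 397 to 665 CPM in CTRL bones, and all 10 had a log2 fold change below 0. The 10 megakaryocyte markers summed to 1106 to 1599 CPM in DoxoR and 1777 to 2300 CPM in CTRL bones, and the 10 skeletal muscle markers to 14268 to 36913 CPM in DoxoR and 4422 to 25655 CPM in CTRL bones, with CTRL 3 the lowest. Osteoblast markers summed to 3988 to 11896 CPM in DoxoR and 4003 to 8933 CPM in CTRL bones. Sums of neutrophil, B cell, erythroid, osteocyte, adipocyte and chondrocyte markers overlapped between the groups. The median log2 fold change was 0.87 over the 8 adipocyte markers and 1.27 over the 8 chondrocyte markers, against −0.54 for the megakaryocyte markers. Every marker of these lists had counts. Except for the muscle and marrow measures used as covariates, their part in the results was not tested. In whole bone, more osteoclasts and more RNA per osteoclast cannot be told apart.

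No member passed the threshold between DoxoR and CTRL bones. In edgeR's quasi-likelihood test 0 of the 37 tested members had an adjusted p under 0.05, against 0% of all tested genes, and their adjusted p lay between 0.855 and 0.981. DESeq2 called 0 members among its 29 genes, and limma-voom called 0 members and 0 genes. At an unadjusted p under 0.05, edgeR placed 4 members higher in DoxoR bones, namely Calcr, Dcstamp, Atp6v0a4 and Atp6v1b2, and 0 lower, against 2.13% of all tested genes higher and 3.23% lower. In 3 of these, Dcstamp, Atp6v0a4 and Atp6v1b2, every DoxoR library lay above every CTRL library, while 0 members had every DoxoR library below. Over all tested genes, 1.64% were apart with DoxoR above and 1.95% with DoxoR below. Atp6v0a4 passed the filter on low counts through its DoxoR libraries, so neither its p nor its separation is support for a difference. With libraries scaled by their totals alone, Dcstamp, Atp6v0a4 and Atp6v1b2 all overlapped between the groups, and Calcr was the member apart. The share of all tested genes apart under that scaling was not computed. The number higher was 2 without DoxoR 2, DoxoR 3, CTRL 1 or CTRL 2. Of all tested genes, 1.34%, 2.14%, 2.04% and 1.24% were higher at that p without those libraries, in the same order. The number was 7 without CTRL 4, where 4.11% of all tested genes were higher at that p. Without DoxoR 3, Car2 was lower at an unadjusted p of 0.0243 (adjusted p = 0.618 in edgeR).

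The osteoclast-specific genes all had positive log2 fold changes, from 0.20 to 0.78, with a median of 0.41 beside a median of 0.04 for all tested genes. The other resorption genes had a median of 0.02, with 5 above and 5 below 0. The shared V-ATPase genes had a median of 0.14, with 13 of 17 above 0. Markers of other cells lay as far from 0, with a median of 0.40 over the osteoblast markers (9 of 10 above 0) and of 0.41 over the skeletal muscle markers (10 of 10 above 0). These medians describe the classes and carry no test. Osteoclast genes were already known to lie on the higher side in these samples when the members were chosen, so their direction is not independent evidence. The class median was 0.18 without CTRL 2, the library with the lowest Acp5, Ctsk, Dcstamp and Tcirg1, and between 0.32 and 0.55 without any other library.

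**Figure D1:**
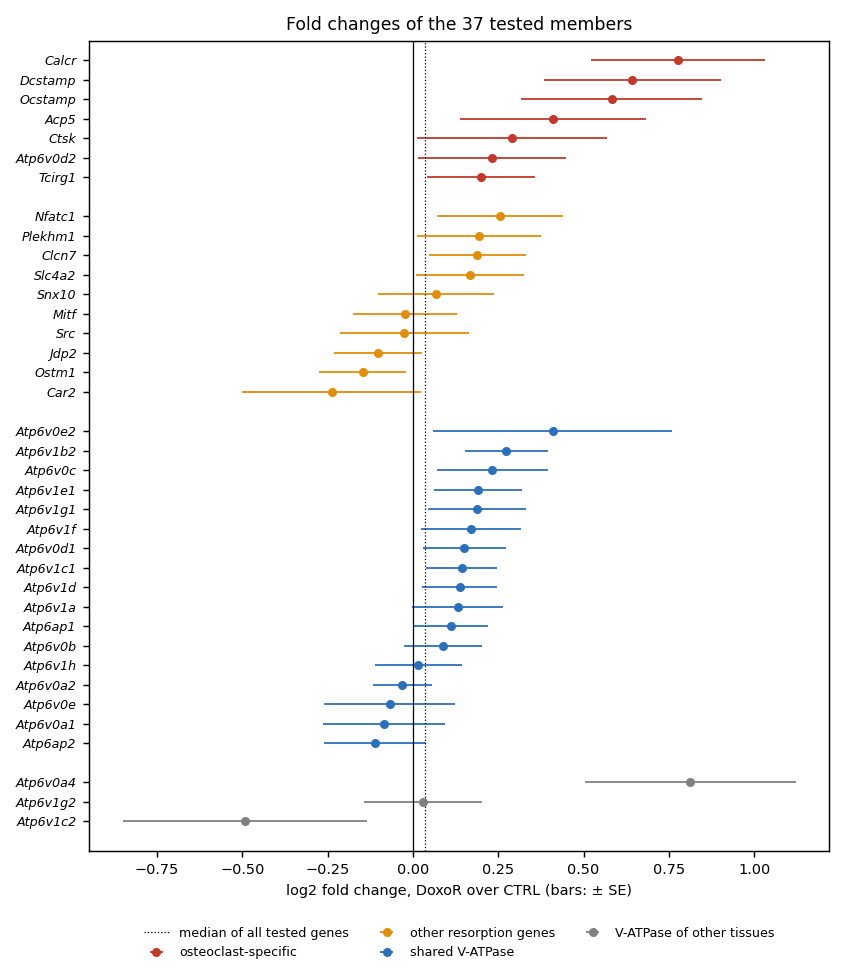
Log2 fold changes of the 37 tested members (horizontal axis, DoxoR over CTRL; bars are ± SE from edgeR; the dotted line is the median of all tested genes), grouped by class. The 7 osteoclast-specific genes lie right of 0, from Tcirg1 at 0.20 to Calcr at 0.78, while the other resorption genes spread on both sides of 0.

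Acp5 encodes tartrate-resistant acid phosphatase, the enzyme used to stain osteoclasts. It measured 436, 488, 519 and 372 CPM in DoxoR 1 to 4, against 298, 179, 488 and 401 CPM in CTRL 1 to 4. DoxoR 1, DoxoR 2 and DoxoR 4 lay within the CTRL range, DoxoR 3 lay above it, and CTRL 2 stood lowest. The log2 fold change was 0.41 ± 0.27 (SE), with an adjusted p of 0.856 in edgeR.

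Ctsk encodes cathepsin K, the protease that degrades bone collagen. Its levels were 515, 523, 467 and 373 CPM in the DoxoR libraries, against 312, 209, 576 and 437 CPM in the CTRL libraries. The highest and the lowest value were both CTRL, so the CTRL range enclosed the DoxoR range. The log2 fold change of 0.29 ± 0.28 (SE) was 0.07 without CTRL 2 and 0.52 without CTRL 3.

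Dcstamp and Ocstamp encode membrane proteins needed for osteoclast precursors to fuse into multinucleated cells. Dcstamp was at 7.13, 8.02, 7.67 and 5.95 CPM in DoxoR bones, against 5.58, 2.19, 5.38 and 5.17 CPM in CTRL bones, with all DoxoR values above all CTRL values. Its log2 fold change was 0.64 ± 0.26 (SE; unadjusted p = 0.0332, adjusted p = 0.856 in edgeR), and 0.41 without CTRL 2. Ocstamp was at 2.22, 2.97, 3.69 and 2.30 CPM in DoxoR, against 1.54, 1.31, 1.90 and 2.70 CPM in CTRL. CTRL 4 alone lay within the DoxoR range, and the log2 fold change was 0.58 ± 0.27 (SE; unadjusted p = 0.0536). Leaving out CTRL 4 gave 0.79 for Ocstamp, and leaving out DoxoR 3 gave 0.40.

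Calcr, the receptor through which calcitonin restrains osteoclasts, had the smallest p of all members. It measured 4.09, 3.91, 2.27 and 2.69 CPM in DoxoR bones, against 2.44, 1.49, 2.08 and 1.52 CPM in CTRL bones. DoxoR 1 and DoxoR 2 were the highest libraries, and CTRL 1 lay above DoxoR 3. The log2 fold change was 0.78 ± 0.25 (SE), with an unadjusted p of 0.0123 and an adjusted p of 0.855 in edgeR. It ran from 0.63 to 0.92 with each library left out, and its unadjusted p lay between 0.0053 and 0.045 over all alternatives of the fit. Its adjusted p lay between 0.435 and 1.00 over the same alternatives.

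**Figure D2:**
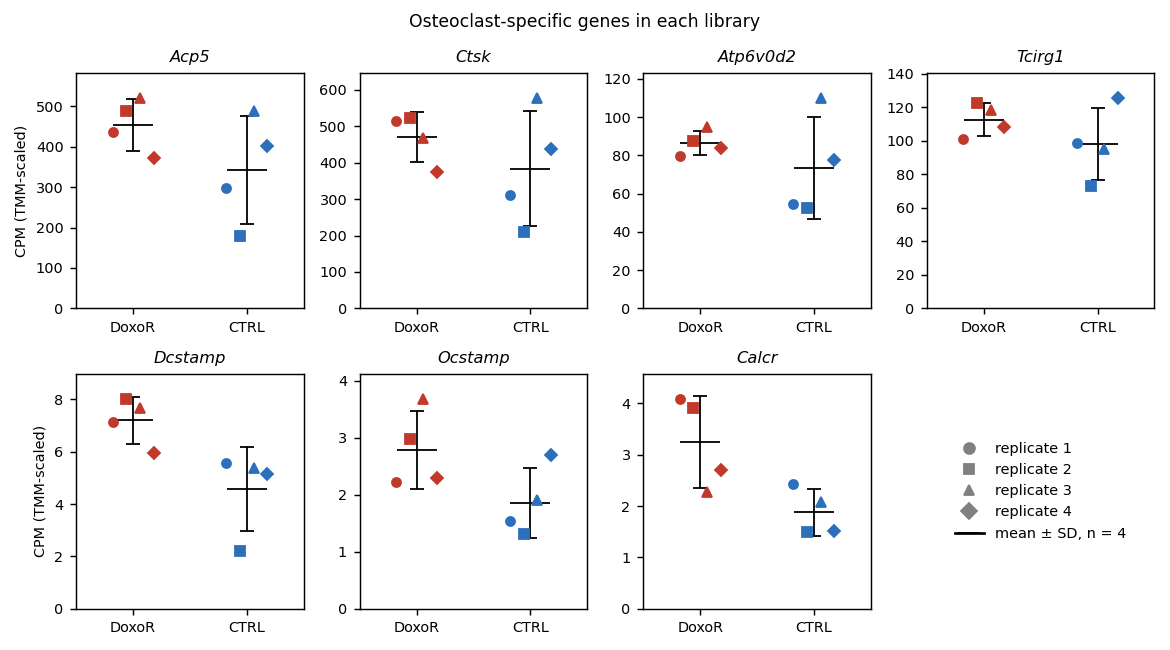
TMM-scaled CPM (vertical axes, from 0) of the 7 osteoclast-specific genes in each library, with mean ± SD (n = 4 mice a group); marker shapes give the replicate number. Dcstamp is the gene whose DoxoR values all lie above its CTRL values, and CTRL 2 is the lowest library for Acp5, Ctsk, Atp6v0d2, Tcirg1, Dcstamp, Ocstamp and Calcr.

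Several of these fold changes depended on single libraries. Acp5 ran from 0.18 without CTRL 2 to 0.60 without CTRL 3, and Atp6v0d2 from 0.08 without CTRL 2 to 0.45 without CTRL 3. Every left-out value of the 7 genes was above 0.

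**Figure D3:**
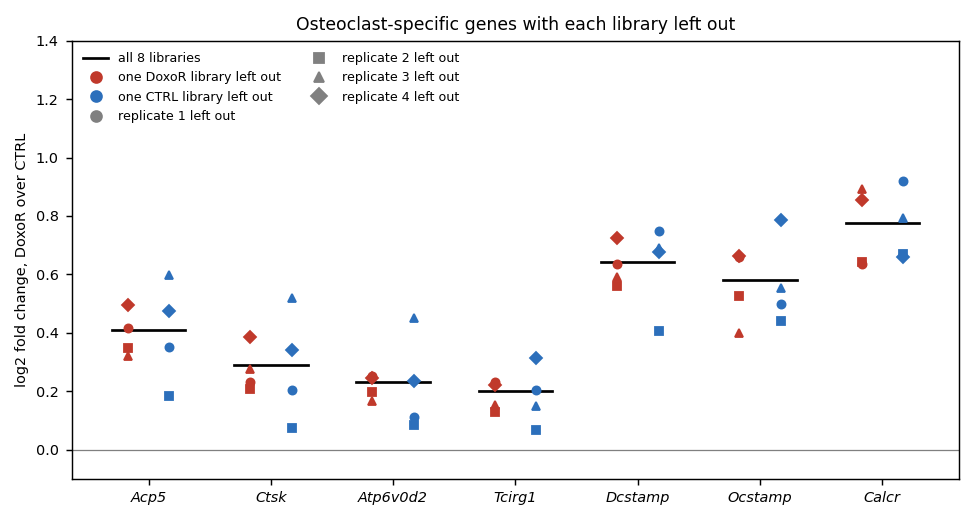
Log2 fold change (vertical axis, DoxoR over CTRL) of the 7 osteoclast-specific genes with all 8 libraries (black line) and with each library left out (points; colour gives the group and shape the replicate left out). All points lie above 0, and the lowest for Ctsk, 0.07, and for Tcirg1, 0.07, are those without CTRL 2.

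Tcirg1 encodes a3, the a subunit that carries the pump to the ruffled border. It was at 101, 123, 119 and 108 CPM in DoxoR bones, against 99.0, 72.9, 95.2 and 125 CPM in CTRL bones. CTRL 4 was the highest of all 8 libraries, and the log2 fold change was 0.20 ± 0.16 (SE). Atp6v0d2 encodes d2, which is also needed for precursor fusion. It was at 79.7, 87.6, 94.6 and 83.6 CPM in DoxoR, against 54.6, 52.4, 110 and 77.4 CPM in CTRL. The CTRL values of Atp6v0d2 spread over a wider range than the DoxoR values, with CTRL 3 above all 4 DoxoR libraries, and the log2 fold change was 0.23 ± 0.22 (SE).

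Osteoclast isoforms were then set against the other isoforms of the same subunit within each library, where scaling between libraries plays no part. Per exon length, a3 made up 62.0%, 63.7%, 61.7% and 60.9% of the mRNA of the 4 a-subunit genes in DoxoR 1 to 4, against 58.4%, 54.8%, 58.8% and 58.6% in CTRL 1 to 4. The a3 shares of the groups did not overlap. Atp6v0a1, the a1 subunit of many cells, made up 20.6% ± 1.35 in DoxoR and 23.3% ± 1.65 in CTRL bones (SD, n = 4 each), and Atp6v0a2, a subunit of Golgi and endosomes, 16.998% ± 1.20 in DoxoR and 18.9% ± 2.70 in CTRL bones.

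The log2 ratio of Tcirg1 to Atp6v0a1 counts was 1.19, 1.16, 0.98 and 0.99 in DoxoR libraries, against 0.87, 0.75, 0.90 and 0.68 in CTRL libraries. The ratio was higher in all 4 DoxoR mice than in any CTRL mouse, by 0.28 on the log2 scale. An exact permutation test over the 8 libraries gave p = 0.0286, the smallest that 4 against 4 allows, and adjusted over the 3 ratios examined p = 0.0857, so it did not pass the threshold. The ratio of Tcirg1 to Atp6v0a2 differed by 0.25 (exact permutation p = 0.0857, adjusted p = 0.129). Without CTRL 4 both ratios passed, each with an adjusted exact permutation p of 0.0429 and differences of 0.24 for Atp6v0a1 and 0.35 for Atp6v0a2. CTRL 4 was the CTRL library whose ratio to Atp6v0a2, 1.37, lay within the DoxoR range of 1.19 to 1.44. Leaving it out therefore set the groups fully apart by itself, with each p at the smallest value that 4 against 3 allows.

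The d subunits did not show the same separation. Atp6v0d2 made up 55.7%, 57.2%, 52.8% and 55.4% of d-subunit mRNA per length in DoxoR bones, against 43.7%, 46.3%, 63.2% and 57.2% in CTRL bones. The DoxoR mice lay close together, while CTRL 1 and CTRL 2 lay below them and CTRL 3 above. The log2 ratio of Atp6v0d2 to Atp6v0d1 differed by 0.15 (exact permutation p = 0.571, adjusted p = 0.571), and by −0.023 without CTRL 1 and 0.36 without CTRL 3.

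**Figure D4:**
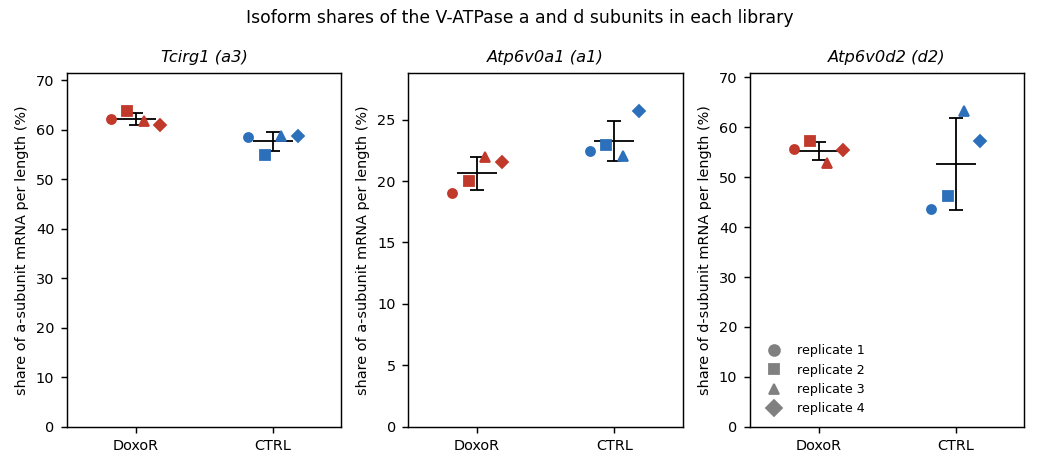
Share of a-subunit mRNA held by Tcirg1 and Atp6v0a1 and share of d-subunit mRNA held by Atp6v0d2 (vertical axes in percent per exon length, from 0), by library with mean ± SD (n = 4). The 4 DoxoR values of Tcirg1, from 60.9% to 63.7%, lie above the 4 CTRL values, from 54.8% to 58.8%; for Atp6v0d2 the CTRL values lie on both sides of the DoxoR values.

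For the other subunits, the common isoform held nearly all the mRNA. Atp6v1b2 was the B subunit in these bones, since Atp6v1b1, the isoform of kidney and inner ear, had 1 count in 1 library. Atp6v1c1 made up 97.0% ± 1.13 of C-subunit mRNA per length in DoxoR and 95.6% ± 1.31 in CTRL bones, and Atp6v1g1 98.1% ± 0.365 and 97.9% ± 0.626 of G-subunit mRNA (SD, n = 4 each). Atp6v0e held 89.2% ± 4.17 and 91.4% ± 4.28 of e-subunit mRNA, the rest being Atp6v0e2.

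Ranked by level per exon length over all libraries, the shared subunits ran from Atp6v1g1 (167 TPM), Atp6v0b (79.7 TPM) and Atp6v1f (69.8 TPM) down to Atp6v1h (7.07 TPM) and Atp6v0e2 (4.02 TPM). The 2 osteoclast isoforms lay among them, Atp6v0d2 at 53.5 TPM and Tcirg1 at 41.5 TPM. Neighbours in this order, such as Tcirg1 and Atp6v0e at 41.5 TPM, differed by less than their SD over libraries. Ctsk (512 TPM), Car2 (389 TPM) and Acp5 (357 TPM) were the most abundant members. The lengths sum all annotated exons of a gene, so these TPM are approximate.

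Atp6v1b2, which carries ATP-binding sites of the V1 head, was the shared subunit with the smallest p. It measured 125, 132, 166 and 140 CPM in DoxoR, against 116, 104, 123 and 123 CPM in CTRL bones. All DoxoR values lay above all CTRL values, the nearest pair being DoxoR 1 at 125 and CTRL 3 at 123. The log2 fold change was 0.27 ± 0.12 (SE; unadjusted p = 0.0466, adjusted p = 0.856 in edgeR), and 0.16 without DoxoR 3.

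All 8 V1 subunits of the shared class had log2 fold changes above 0, from 0.02 for Atp6v1h, which regulates the joining of V1 to V0, to 0.27 for Atp6v1b2, with a median of 0.16. Atp6v1a, the catalytic subunit, was at 102 ± 10.4 CPM in DoxoR and 92.7 ± 15.0 CPM in CTRL bones (SD, n = 4 each). The stalk subunit Atp6v1e1 was at 98.0 ± 11.2 and 85.8 ± 11.5 CPM. When libraries were scaled by their totals alone the value of Atp6v1h was −0.037, and it was −0.0056 with haemoglobin genes left out.

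Of the 7 shared V0 subunits, 4 lay above and 3 below 0. Atp6v0e2, an e isoform, had the highest value, 0.41 ± 0.35 (SE), at 6.28 ± 2.15 CPM in DoxoR and 4.74 ± 1.82 CPM in CTRL bones (SD, n = 4 each), and 0.11 without CTRL 3. Atp6v0c, the proteolipid of the proton-carrying ring, followed at 0.23 ± 0.16 (SE), or 0.11 without CTRL 2; its pseudogene Atp6v0c-ps2 held 109 counts in all. The lowest were Atp6v0a1 at −0.08 ± 0.18 and Atp6v0e at −0.07 ± 0.19 (SE). The accessory proteins split as well, with Atp6ap1 at 0.11 ± 0.11, or 0.027 without CTRL 2, and Atp6ap2, also known as the prorenin receptor, at −0.11 ± 0.15 (SE).

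CTRL 3 stood apart for some genes of the shared class. It had the highest CTRL level of Atp6v1a (115 CPM), Atp6v1c1 (56.4 CPM) and Atp6ap2 (101 CPM). For Atp6v0a1, Atp6v0a2, Atp6v0c, Atp6v0d1 and Atp6ap1 another CTRL library was higher, and for Atp6v0e2 CTRL 3 was the lowest of all libraries (2.06 CPM). Its summed muscle markers were the lowest of all libraries. Its summed neutrophil (23016 CPM), macrophage (665 CPM), B cell (999 CPM) and megakaryocyte (2300 CPM) markers were the highest of all libraries, as were its total counts. Without CTRL 3, 11 of the 37 members had groups that did not overlap, all with DoxoR above, against 3.25% of all tested genes apart in that direction. They were Atp6v0a4, Atp6v0b, Atp6v0d2, Atp6v1a, Atp6v1b2, Atp6v1c1, Atp6v1d, Atp6v1e1, Atp6v1f, Dcstamp and Snx10. Of these, Atp6v0a4, Atp6v1b2 and Dcstamp were apart with all libraries. For the others CTRL 3 was the highest CTRL library, so leaving it out set the groups apart by itself and the number is not support for a difference. Without CTRL 4 the number with DoxoR above was 8, against 5.44% of all tested genes. CTRL 4 was likewise the highest CTRL library for those newly apart, Atp6v0c, Clcn7, Ocstamp, Plekhm1 and Tcirg1. With the muscle markers as a covariate, 12 members were higher at an unadjusted p under 0.05, against 2.64% of all tested genes, and 0 passed the adjusted threshold.

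Among the acid and ion transporters, Car2, the carbonic anhydrase that supplies protons, was at 402, 443, 727 and 316 CPM in DoxoR bones, against 420, 507, 684 and 618 CPM in CTRL bones. The groups overlapped over most of their range, and the log2 fold change was −0.24 ± 0.26 (SE), or −0.55 without DoxoR 3 and −0.088 without DoxoR 4. Red cell precursors also express Car2, and the 10 erythroid markers summed to 1509, 1664, 2973 and 1380 CPM in DoxoR and 1776, 1823, 2635 and 2839 CPM in CTRL bones. In both measures DoxoR 3 was the highest DoxoR library, and DoxoR 4 the lowest of all 8. The part of erythroid cells in the Car2 values was not tested.

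Clcn7 encodes the chloride-proton exchanger of the ruffled border and Ostm1 its partner subunit. Clcn7 was at 29.5, 35.4, 33.8 and 30.1 CPM in DoxoR, against 29.0, 21.6, 28.4 and 34.0 CPM in CTRL bones, a log2 fold change of 0.19 ± 0.14 (SE), or 0.065 without CTRL 2. Ostm1 was at 55.2, 53.7, 58.6 and 59.7 CPM in DoxoR, against 53.2, 64.9, 77.0 and 56.5 CPM in CTRL bones, and had the opposite sign, −0.15 ± 0.13 (SE), or −0.075 without CTRL 3. The groups overlapped for both genes.

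Slc4a2, the bicarbonate exchanger that keeps the osteoclast's own pH neutral, was at 36.9, 46.3, 35.6 and 35.1 CPM in DoxoR, against 37.6, 27.7, 29.7 and 42.2 CPM in CTRL bones. DoxoR 2 stood above the other DoxoR libraries, and the log2 fold change of 0.17 ± 0.16 (SE) was 0.037 without it. Of its exon length, 13.7% overlaps Fastk on the opposite strand, and the sources used here do not say whether counting used strand.

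Snx10, a sorting nexin that acts in vesicle traffic to the ruffled border, was at 83.0, 83.5, 95.7 and 83.4 CPM in DoxoR, against 69.2, 75.1, 116 and 69.4 CPM in CTRL bones. CTRL 3 was the highest library and the other CTRL libraries lay below every DoxoR library. The log2 fold change was 0.07 ± 0.17 (SE) and 0.24 without CTRL 3. Plekhm1, which links late endosomes and lysosomes to the fusion machinery, was at 34.8, 39.2, 42.6 and 36.8 CPM in DoxoR, against 32.3, 24.4, 30.6 and 46.9 CPM in CTRL bones. Here CTRL 4 was the highest library, and the log2 fold change of 0.19 ± 0.18 (SE) was 0.37 without it and 0.05 without CTRL 2.

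Src, a kinase needed to form the ruffled border, was at 21.7, 31.7, 21.2 and 21.5 CPM in DoxoR, against 26.3, 19.1, 21.1 and 31.4 CPM in CTRL bones. The groups overlapped over nearly their whole range, and the log2 fold change of −0.03 ± 0.19 (SE) lay on either side of 0 depending on the library left out.

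Of the transcription factors, Nfatc1, the master regulator of osteoclast differentiation, was at 40.5, 48.6, 41.1 and 34.2 CPM in DoxoR bones, against 40.1, 27.0, 26.9 and 43.7 CPM in CTRL bones. CTRL 2 and CTRL 3 were lower than all DoxoR libraries and the other CTRL libraries lay within their range, with a log2 fold change of 0.26 ± 0.18 (SE) and an adjusted p of 0.856 in edgeR. It was 0.12 without CTRL 3. Mitf was at 17.2, 13.8, 11.6 and 14.1 CPM in DoxoR, against 16.2, 15.9, 13.4 and 12.1 CPM in CTRL, a log2 fold change of −0.02 ± 0.15 (SE). Jdp2, an AP-1 family protein required for osteoclast formation in mice, was at 34.4, 36.98, 35.0 and 30.9 CPM in DoxoR, against 39.5, 41.6, 37.3 and 29.0 CPM in CTRL. Its log2 fold change was −0.10 ± 0.13 (SE), and −0.23 without CTRL 4, its lowest library.

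The subunits known from other tissues were scarce. Atp6v0a4, the a4 subunit of kidney, was at 0.478, 0.481, 0.461 and 0.695 CPM in DoxoR, against 0.187, 0.28, 0.305 and 0.405 CPM in CTRL bones. All DoxoR values lay above all CTRL values, and the log2 fold change was 0.81 ± 0.31 (SE; unadjusted p = 0.0252, adjusted p = 0.856 in edgeR). Its counts were 11, 16, 14 and 16 in the DoxoR libraries, against 5, 6, 12 and 12 in the CTRL libraries. The gene passed the filter on low counts through the DoxoR libraries, so its p and its separation depend on that filter and are not support. Atp6v0a4 made up 0.272% ± 0.0642 of a-subunit mRNA per length in DoxoR and 0.162% ± 0.0406 in CTRL bones (SD, n = 4 each), and 5.21% of its exon length overlaps another gene on the same strand, D630045J12Rik. Atp6v1c2 was at 0.638 ± 0.23 CPM in DoxoR and 0.888 ± 0.344 CPM in CTRL bones, and the neuronal Atp6v1g2 at 4.72 ± 0.668 and 4.62 ± 0.812 CPM (SD, n = 4 each).

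The 4 members that did not pass the filter were almost without counts. Atp6v1b1, Atp6v1g3 and Atp6v1fnb each had 1 count in a single library, and Atp6v1e2, the testis isoform, had 0 in all 8, where a floor of 3 counts per library corresponds to between 0.0839 and 0.127 CPM and covers counting error only.

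How the members moved together from mouse to mouse was examined through their correlation with Acp5 over the 8 libraries. Over all 8 libraries Ctsk had the highest Pearson's r, 0.96 (exact permutation p = 0.000794, adjusted over 36 members p = 0.0205), with Spearman's rho = 0.86 (exact permutation p = 0.0107, adjusted p = 0.157). Atp6v0d2 had r = 0.89 (exact permutation p = 0.00114, adjusted p = 0.0205) and the highest rho, 0.90 (exact permutation p = 0.00456, adjusted p = 0.157). The accessory protein Atp6ap1 reached r = 0.95 (exact permutation p = 0.00213, adjusted p = 0.0256) and rho = 0.83 (exact permutation p = 0.0154, adjusted p = 0.157). These 3 were the members past the threshold by Pearson's r, and 0 passed by rho.

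The median r was 0.85 over the 6 other osteoclast-specific genes, 0.40 over the other resorption genes and 0.55 over the shared V-ATPase genes. With the DoxoR and CTRL means removed, the medians were 0.80, 0.39 and 0.53, and without CTRL 1 and CTRL 2, the libraries with the lowest Acp5, they were 0.46, 0.13 and 0.50. Without those libraries the osteoclast-specific median was no longer the highest, over 6 libraries with a narrower range of Acp5. Mitf, at r = −0.53 (exact permutation p = 0.18) and rho = −0.62 (exact permutation p = 0.115), had the lowest value. The 2 libraries farthest from the median of Acp5 were CTRL 1 and CTRL 2, both at its low end. Without them r was 0.74 for Ctsk, 0.67 for Atp6v0d2, 0.60 for Atp6ap1, −0.02 for Tcirg1 and 0.22 for Clcn7. The highest were then Atp6v1h at 0.88 and Jdp2 at 0.83, against 0.55 and −0.47 over all 8 libraries. Within the 4 DoxoR libraries r was 0.71 for Ctsk and Atp6v0d2, 0.92 for Atp6ap1, 0.67 for Tcirg1 and 0.77 for Clcn7. Scaled by library totals alone, 16 members passed instead of 3.

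**Figure D5:**
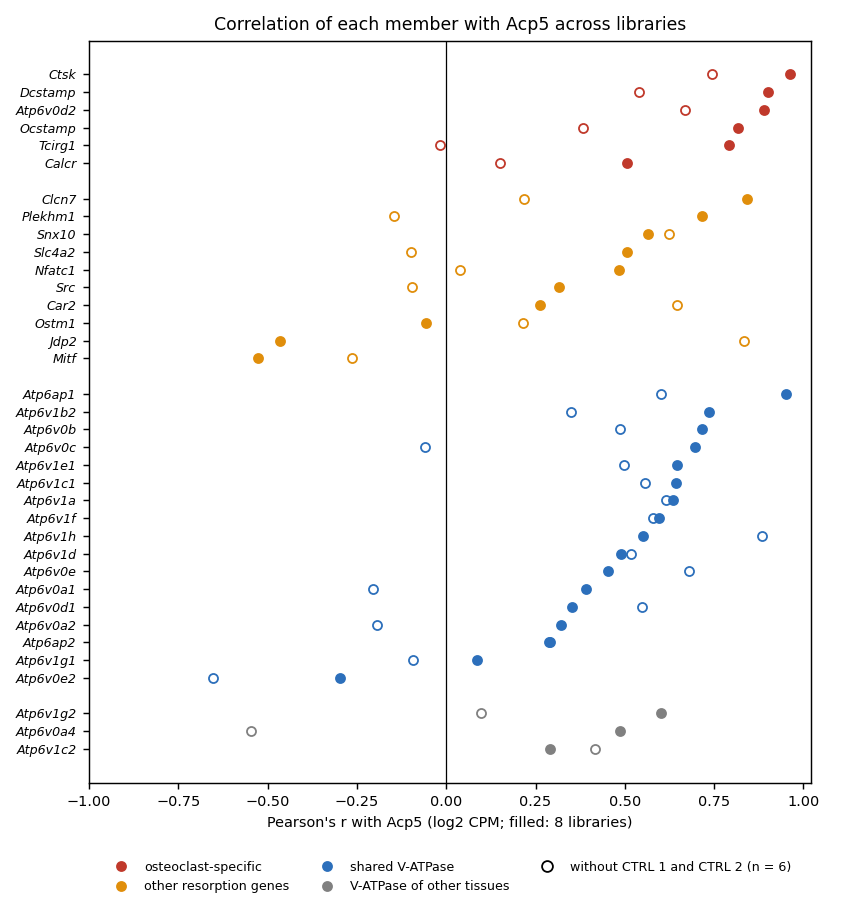
Pearson's r of each tested member with Acp5 (horizontal axis) over the 8 libraries (filled) and without CTRL 1 and CTRL 2 (open, n = 6), by class. Ctsk, Dcstamp and Atp6v0d2 keep r between 0.54 and 0.74 without them, while Ocstamp lies at 0.38, Calcr at 0.15 and Tcirg1 at −0.02. The highest open points are Atp6v1h at 0.88 and Jdp2 at 0.83, which are not of the osteoclast-specific class.

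Beyond the members, 20 further osteoclast genes were examined. Their median log2 fold change was 0.18, with 15 above and 5 below 0. In edgeR and limma-voom 0 of them passed the adjusted threshold, with 2 higher and 1 lower at an unadjusted p under 0.05 in edgeR, and DESeq2 called 1, Anxa8, at an adjusted p of 0.0421. Anxa8, an annexin, had the smallest p, at 9.07 ± 2.65 CPM in DoxoR and 4.61 ± 0.809 CPM in CTRL bones (SD, n = 4 each), a log2 fold change of 0.98 ± 0.22 (SE; unadjusted p = 0.00112, adjusted p = 0.703 in edgeR). Itgb3, an integrin shared with platelets, was at 228 ± 33.7 CPM in DoxoR and 303 ± 15.2 CPM in CTRL bones (SD, n = 4 each). Its log2 fold change was −0.41 ± 0.14 (SE), and its DoxoR values all lay below its CTRL values. Beside it, the co-receptor Oscar had 0.66 ± 0.23 and Tnfrsf11a, which encodes RANK, 0.29 ± 0.18 (log2 ± SE). The megakaryocyte markers, whose sums in DoxoR bones all lay below those in CTRL bones, moved with Itgb3, and their part in it was not tested.

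The 24 lysosome genes, which share the V-ATPase with every cell, had a median of 0.04 and 0 members at an unadjusted p under 0.05. Among those with the smallest p were Tfeb, a regulator of lysosome genes, at 0.33 ± 0.20, Npc2 at 0.17 ± 0.13 and Npc1 at 0.16 ± 0.14 (log2 ± SE). The median of the 24 genes equalled that of all tested genes to 2 decimals.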

How the data were processed

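The deposited table gives expected counts per gene, all stored as whole numbers (0 values were not whole), for 8 libraries of poly-A RNA. The submitters' processing notes name STAR 2.5.3a, RSEM 1.3.0 and the build GRCh38, a human one, although the identifiers are mouse. The sources used here do not say how the counts were filtered or rounded, nor whether strand or the adaptors' molecular identifiers were used. Replicates were separate mice. Over the 28 pairs of libraries the counts differed with a chi-square of 29.0 to 297 per degree of freedom, and no library was a duplicate.

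Genes were filtered with edgeR's filterByExpr (minimum count 10, minimum total 15), scaled by TMM and tested with the robust quasi-likelihood test (edgeR 4.0.16, R 4.3.3; Benjamini-Hochberg over 17035 genes, threshold 0.05). The fit was tested on simulated data. As other tools, limma-voom (limma 3.58.1) and DESeq2 1.42.0 were run. CPM are TMM-scaled; log2 fold changes are DoxoR over CTRL. The edgeR biological coefficient of variation was 0.219, and the number of mice limits precision more than depth. TPM used exon lengths of GENCODE M21 (GRCm38), in which all 41 members were found. Ratios and correlations used exact permutation tests (scipy 1.17.1).

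The members and gene lists were chosen with earlier results of these data known. All members are described; from each further list the text names up to 4 genes with the smallest p, except 1 lysosome gene that is not reported here. Alternatives were another scaling, filter, tool, covariate or threshold, the replicate number as a block, and each library left out. Pairs of same-numbered samples had correlations of deviations of 0.34, −0.266, 0.43 and 0.09 for numbers 1 to 4, against −0.417 to 0.228 for the other pairs. Numbers 1 and 3 gave the highest values of all pairs, and number 2 a negative one. The numbers were not taken to pair mice, and whether same-numbered samples share a source of variation was not tested.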

Additional observations from a re-analysis of the deposited data

Results flagged for a closer look

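In each group of 4 libraries, a value was singled out when its gap to the nearest other value exceeded Dixon's critical share of the group's range, which chance alone does in about 5% of groups; 10 of 80 groups were singled out. In CTRL 3 this held for Snx10 (116 CPM, the other CTRL libraries 69.2 to 75.1 CPM), Atp6v1a (115 CPM, others 83.5 to 86.8 CPM), Atp6ap2 (101 CPM, others 66.5 to 70.03 CPM), Atp6v1c1 (56.4 CPM, others 44.9 to 46.8 CPM) and Atp6v1h (46.6 CPM, others 34.3 to 36.0 CPM). Each was high in the library with the lowest muscle markers. The same library had the highest summed neutrophil, macrophage, B cell and megakaryocyte markers and the most counts. The cause was not tested. In CTRL 2 Dcstamp was low (2.19 CPM, others 5.17 to 5.58 CPM). In DoxoR 2 Src (31.7 CPM, others 21.2 to 21.7 CPM) and Slc4a2 (46.3 CPM, others 35.1 to 36.9 CPM) were high, in DoxoR 3 Snx10 (95.7 CPM, others 83.0 to 83.5 CPM), and in DoxoR 4 Atp6v0a4 (0.695 CPM, others 0.461 to 0.481 CPM).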

How the results depend on the processing

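No member passed the adjusted threshold under any of the 18 alternatives of the fit, nor at a threshold of 0.1; the smallest adjusted p was 0.395. All genes past the threshold numbered 29 in DESeq2 and 1 with no filter, and 0 otherwise. Members at an unadjusted p under 0.05 numbered 1 with library size as the only scaling, against 4.03% of all tested genes. They numbered 12 with the muscle covariate, against 5.59%. With a library left out they numbered 2 to 7, against 3.65% to 10.5%. Both the 7 members and the 10.5% were without CTRL 4. Members with groups apart numbered 1, Calcr, with library size only, where the share of all genes was not computed. With a library left out they numbered 3 to 11, against 4.93% to 10.7% of all tested genes. The 11 were apart without CTRL 3, where 5.57% of all tested genes were. CTRL 3 was the highest CTRL library for the members newly apart, so leaving it out separated them by itself. With the replicate number as a replicate block, 5 members and 1466 genes had an unadjusted p under 0.05, against 4 and 913 without it, and 0 passed; not every library correlated best with its own number. Of 664 fold changes of members recomputed, 635 kept their sign and 29, in 8 genes, did not. With library size only, Atp6v1h was at −0.037 and Atp6v1g2 at −0.021, and 16 members correlated with Acp5. Without haemoglobin genes Atp6v1h was at −0.0056, with the marrow covariate Atp6v0e at 0.058, and with the muscle covariate Atp6v0e at 0.13 and Atp6ap2 at 0.023. With a library left out, the log2 fold change ran from −0.058 to 0.088 for Atp6v1h, −0.22 to 0.089 for Src, −0.030 to 0.24 for Snx10, −0.15 to 0.038 for Mitf, −0.092 to 0.12 for Atp6v1g2, −0.18 to 0.12 for Atp6v0e, −0.19 to 0.016 for Atp6ap2 and −0.21 to 0.083 for Atp6v0a1. The log2 ratio ran from −0.023 to 0.36 for Atp6v0d2 over Atp6v0d1, 0.24 to 0.32 for Tcirg1 over Atp6v0a1 and 0.15 to 0.35 for Tcirg1 over Atp6v0a2. The cause was not tested. Counts of 92 and 182 in all for Atp6v0a4 and Atp6v1c2 limit what depth can show.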
